A study of Mus musculus with 3 samples.

Results

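The genes described here are 6 members of the neurotrophin system, namely the ligands Bdnf and Ntf3, the receptor tyrosine kinases Ntrk2 and Ntrk3, and the receptors Ngfr and Sort1, out of 32285 genes listed. They were taken by symbol and were measured by single-nuclei RNA sequencing (snRNAseq) in the basolateral amygdala (BLA) of adult male C57BL/6NRj mice. The mice were at postnatal day 56, with brains of 4 males in a dataset, and no experimental treatment was named. Before dissection they were anesthetized with ketamine and xylazine and perfused. Nuclei of libraries 2 and 3 were placed into classes by the raw number of unique molecular identifiers (UMIs, each standing for 1 captured RNA molecule) of a few marker genes, none of which is a member. Glutamatergic nuclei had at least 2 UMIs of Slc17a7 and Slc17a6 together and none of Gad1 and Gad2, GABAergic nuclei the reverse, and in both the astrocyte genes Slc1a2 and Slc1a3 made up less than 0.1% of UMIs. In astrocyte nuclei these genes made up at least 0.6%. Glutamatergic nuclei were further split by 2 or more UMIs of Rspo2 and of Grik1, which mark different parts of the glutamatergic BLA population. Whether the libraries came from separate sets of brains was not given in the sources used here. Each p-value sets a difference between classes against the spread between these libraries, which was estimated with the help of all genes tested. That spread may therefore be technical.

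Neurotrophins are secreted as precursors that are cleaved to mature dimers. Mature BDNF, the product of Bdnf, binds TrkB, encoded by Ntrk2, and NT-3, the product of Ntf3, binds mainly TrkC, encoded by Ntrk3. The p75 receptor, encoded by Ngfr, binds all neurotrophins and, together with sortilin, the product of Sort1, their precursors. In the amygdala BDNF and TrkB are known for their part in the synaptic plasticity of fear learning. TrkB and TrkC also exist as truncated forms without a kinase domain, and truncated TrkB is abundant in astrocytes. The counts are per gene and do not separate these forms.

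Of 8380 barcodes in libraries 2 and 3, 8284 passed the filters, 3480 of them fell into the 3 classes and 376 into reference classes of oligodendrocyte, oligodendrocyte precursor and microglia nuclei, and 4428 stayed in no class. The classes of libraries 2 and 3 held 484 and 208 glutamatergic, 388 and 677 GABAergic, and 532 and 1191 astrocyte nuclei. Median depth was 15525 and 13115 UMIs in glutamatergic, 7646 and 7246 in GABAergic, and 2744 and 3024 in astrocyte nuclei. Of the markers that the class rule did not use, 2 of 2 glutamatergic (Camk2a and Neurod6), 2 of 2 GABAergic (Slc32a1 and Dlx6os1) and 5 of 5 astrocyte markers, among them Aqp4 and Gja1, were highest in their own class. Libraries 2 and 3 shared 7 cell barcodes. Levels are given as UMIs per 1000000 UMIs of a class in a library (CPM), with the mean ± SD over libraries (n = 2). Levels of different genes were not compared with each other.

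On the GRCm38 assembly, Bdnf lies on chromosome 2 from 109674700 to 109727007 on the plus strand, Ntf3 on chromosome 6 from 126101412 to 126166910 on the minus strand, Ntrk2 on chromosome 13 from 58806569 to 59133970 on the plus strand, Ntrk3 on chromosome 7 from 78175959 to 78738012 on the minus strand, Ngfr on chromosome 11 from 95568818 to 95587735 on the minus strand, and Sort1 on chromosome 3 from 108284082 to 108361511 on the plus strand. All 6 are protein-coding. For 4 of the 6 genes RefSeq promoter windows of 300 bases were at hand (GRCm38.p6). Bdnf has several alternative promoters and 7 windows, and the transcription factor CREB, which binds the cAMP response element, is a textbook activator of Bdnf. The complete element, TGACGTCA, was in none of the 7 windows and in 1.79% of all 32851 windows, searched on both strands. The half-site CGTCA, contained in the complete element, was in 1 of the 7 windows and in 20.8% of all windows. The 250 bases of that window that precede the transcription start, chr2:109692186-109692435 on the plus strand, are shown because Bdnf is described below beside activity-regulated genes. The half-site, in capitals, ends 30 bases before the start.
Bdnf promoter window: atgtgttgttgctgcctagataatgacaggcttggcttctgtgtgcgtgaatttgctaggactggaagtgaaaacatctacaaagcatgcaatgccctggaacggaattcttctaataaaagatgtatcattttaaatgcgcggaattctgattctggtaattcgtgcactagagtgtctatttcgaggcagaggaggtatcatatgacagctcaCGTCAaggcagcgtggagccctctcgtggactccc

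Of the ligands, Bdnf stood highest in glutamatergic nuclei among the 3 classes of the rule. Its level was 26.6 CPM in library 2, from 223 UMIs, and 22.7 CPM in library 3, from 72 UMIs, against 1.40 and 2.35 CPM in GABAergic nuclei and 3.75 and 4.65 CPM in astrocyte nuclei. Both glutamatergic values lay above all others of these classes. The mean was 24.6 ± 2.73 CPM in glutamatergic, 1.88 ± 0.67 in GABAergic and 4.20 ± 0.64 in astrocyte nuclei. In the edgeR fit across all genes Bdnf was higher in glutamatergic than in GABAergic nuclei by 3.70 on the log2 scale (SE 0.30, edgeR adjusted p = 1.75e-07) and lower in astrocyte than in glutamatergic nuclei, with a log2 fold change of -2.62 (SE 0.30, edgeR adjusted p = 1.28e-06). The difference between astrocyte and GABAergic nuclei, 1.08 (SE 0.45), missed the threshold (edgeR adjusted p = 0.0548). Astrocyte nuclei also carried a summed 95.7 and 62.0 CPM of 4 glutamatergic markers. The sum was 482 and 377 CPM in GABAergic and 1165 and 821 CPM in glutamatergic nuclei. Camk2a, which GABAergic nuclei also held, made up most of it, with 75.7 and 49.7 CPM in astrocyte nuclei. The sum is therefore no measure of RNA from glutamatergic nuclei alone. Without the astrocyte nuclei that held any transmitter gene, the astrocyte to GABAergic difference of Bdnf was 1.03 (edgeR adjusted p = 0.0751).

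Most glutamatergic nuclei gave no Bdnf UMI. The share with at least 1 was 17.1% (95% exact binomial interval 13.9 to 20.8) in library 2 and 13.9% in library 3, against 1.29% and 1.48% in GABAergic and 1.13% and 1.51% in astrocyte nuclei. Oligodendrocyte nuclei were chosen to hold no transmitter gene UMI and had a median depth of 2675 and 1981 UMIs. They gave 0 of 84 and 0 of 90, which allows shares of up to 3.57% and 3.33%. Such a limit is 3 nuclei over the number counted, here and for the other shares of 0. The exact 95% upper limits of these oligodendrocyte nuclei were 4.30% and 4.02%. Chosen by their own markers alone, 0 of 99 and 1 of 116 had a Bdnf UMI, the latter a share of 0.862% (95% exact binomial interval 0.022 to 4.71), and 4.04% and 2.59% had a UMI of Slc17a7, which oligodendrocytes should lack. The GABAergic and astrocyte shares lay within what these nuclei allow and were not told apart from background. Nuclei with at least 1700 UMIs were also thinned to 1700, and shallower ones were left out of the thinned shares. These were 145 of 532 and 160 of 1191 astrocyte nuclei. The thinned glutamatergic share was 1.68% and 3.398% (8 of 476 and 7 of 206 nuclei). It was 0.529% and 0.149% in GABAergic and 0.517% and 0.776% in astrocyte nuclei. Thinned oligodendrocyte nuclei gave 0 of 59 and 0 of 58, which allows up to 5.08% and 5.17%. They were too few to tell whether the thinned glutamatergic share exceeds background. All intervals cover counting error only.

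Ntf3 was low, and higher in both neuronal classes than in astrocyte nuclei. It stood at 7.38 and 7.25 CPM in glutamatergic nuclei (62 and 23 UMIs) and at 4.48 and 3.53 CPM in GABAergic nuclei (16 and 21 UMIs). The glutamatergic values were higher in both libraries, but the log2 difference of 0.95 (SE 0.35) missed the threshold (edgeR adjusted p = 0.0713). Astrocyte nuclei held no Ntf3 UMI among 5681362. Set against the 3 UMIs that a count of 0 allows over both libraries, 0.528 CPM, Ntf3 was at least 13.9-fold higher in glutamatergic and at least 7.36-fold higher in GABAergic nuclei than in astrocyte nuclei. Ntf3 passed the test in both astrocyte comparisons (edgeR adjusted p = 1.07e-05 and 0.000173). In glutamatergic nuclei 8.88% and 7.21% had an Ntf3 UMI, in GABAergic nuclei 3.09% and 2.36%. In astrocyte nuclei 0 of 532 and 0 of 1191 did, which allows up to 0.564% and 0.252%. The GABAergic shares lay above these astrocyte limits, but under the 3.57% and 3.33% that 0 of 84 and 0 of 90 oligodendrocyte nuclei allow for Ntf3 as well. After thinning, the GABAergic share was 1.32% and 1.04% and the astrocyte limit 0.775% and 0.291%, while the glutamatergic share was 1.26% in library 2 and 0 of 206 nuclei in library 3. Oligodendrocyte precursor nuclei had 3 Ntf3 UMIs in library 3 and 0 in library 2.

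**Figure D1:**
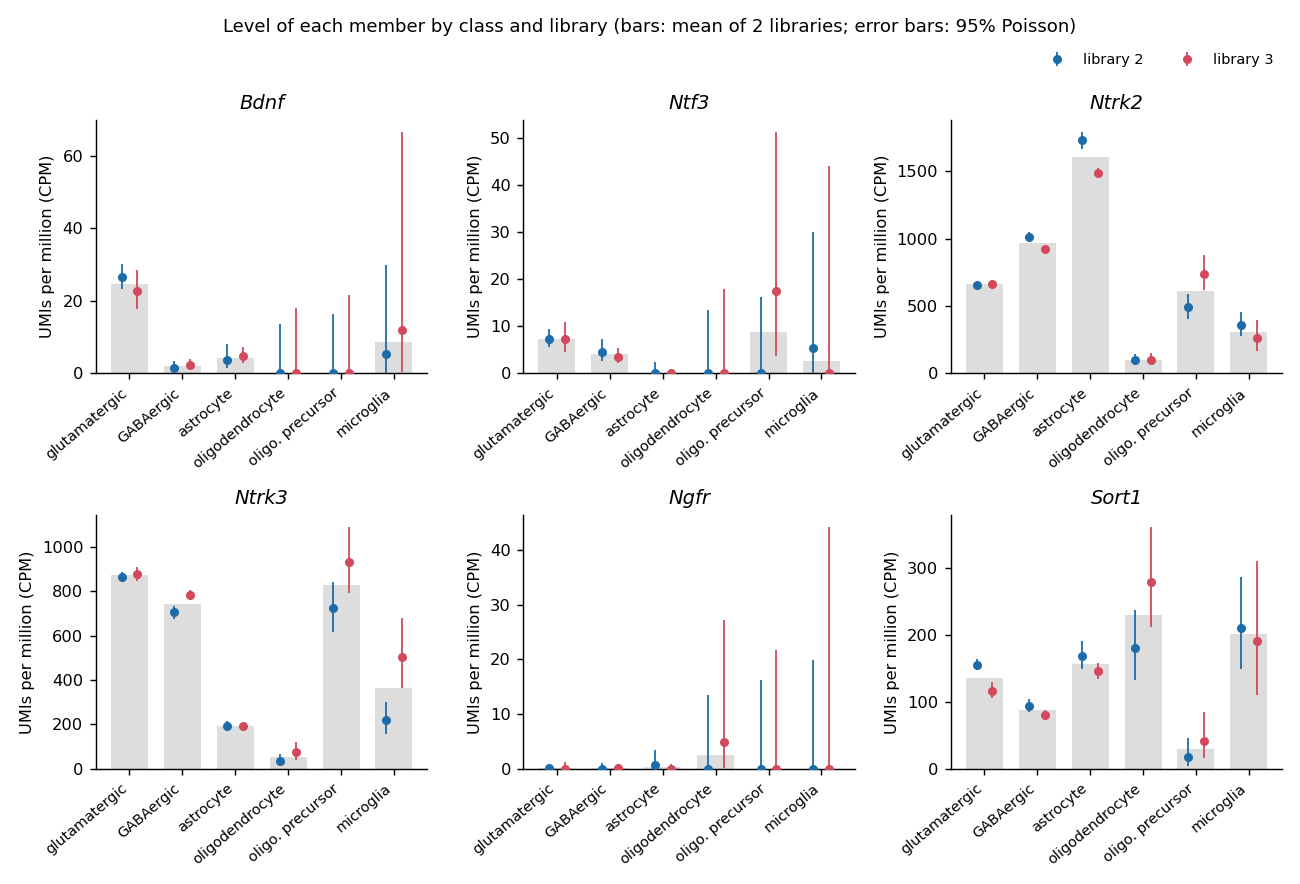
Level of each of the 6 genes (CPM, linear axes from 0) in 6 classes of nuclei, with 1 point per library, its 95% Poisson interval, and a bar at the mean of both libraries. Bdnf was at 26.6 and 22.7 CPM in glutamatergic nuclei and at most 4.65 CPM in GABAergic and astrocyte nuclei, Ntrk2 was highest in astrocyte nuclei (1730 and 1489 CPM), and Ntrk3 was low in astrocyte (192 and 193 CPM) and oligodendrocyte nuclei (36.7 and 73.4 CPM).

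Among the Trk receptors, Ntrk2 gave UMIs in all classes. It was at 1730 and 1489 CPM in astrocyte, 1014 and 924 CPM in GABAergic, and 655 and 666 CPM in glutamatergic nuclei, and these ranges did not overlap. The astrocyte level exceeded the glutamatergic by 1.17 on the log2 scale (SE 0.14, edgeR adjusted p = 3.27e-06) and the GABAergic by 0.69 (SE 0.14, edgeR adjusted p = 0.000627). The glutamatergic level was below the GABAergic, with a log2 fold change of -0.47 (SE 0.14, edgeR adjusted p = 0.0246), a call that was lost without the library as a block (edgeR adjusted p = 0.274). The other classes followed with 490 and 740 CPM in oligodendrocyte precursor, 356 and 264 CPM in microglia, and 99.1 and 97.9 CPM in oligodendrocyte nuclei. The precursor values overlapped the glutamatergic ones, and the remaining neighbours in this order did not overlap. The microglia level came from 19 of 78 and 8 of 37 nuclei. Microglia nuclei also held 205 and 192 CPM of the neuronal gene Camk2a, against 58.7 and 48.9 CPM in oligodendrocyte nuclei. Whether RNA of neurons makes up part of the microglia level was not tested.

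Ntrk2 was also found in most astrocyte, GABAergic and glutamatergic nuclei. Among nuclei with at least 1700 UMIs, thinned to that number, 92.5% and 89.6% of astrocyte nuclei had at least 1 UMI. The thinned shares were 73.3% and 68.8% in GABAergic and 59.9% and 61.7% in glutamatergic nuclei. Over all nuclei at full depth, also those under 1700 UMIs, the shares were 88.7% and 94.96% in astrocyte nuclei. They were 95.4% and 94.8% in GABAergic and 96.9% and 97.1% in glutamatergic nuclei. The order of the thinned shares was that of the CPM. Thinned oligodendrocyte nuclei gave 13.6% and 13.8%. Every glutamatergic nucleus with a Bdnf UMI, 83 in library 2 and 29 in library 3, also had an Ntrk2 UMI. After thinning, 7 of 8 and 6 of 7 nuclei with Bdnf had Ntrk2, where the product of the separate shares gives 4.79 and 4.32 nuclei, a difference too small in number to read.

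Ntrk3 was highest in neurons and oligodendrocyte precursors. It stood at 866 and 878 CPM in glutamatergic, 724 and 933 CPM in oligodendrocyte precursor, 705 and 783 CPM in GABAergic, 221 and 503 CPM in microglia, 192 and 193 CPM in astrocyte, and 36.7 and 73.4 CPM in oligodendrocyte nuclei. The precursor values overlapped both the glutamatergic and the GABAergic ones, and no other neighbours in this order overlapped. The microglia level rested on 41 and 42 UMIs in 14 of 78 and 10 of 37 nuclei, and a part of neuronal RNA in it was not tested. In the fit, Ntrk3 was lower in astrocyte than in glutamatergic nuclei, with a log2 fold change of -2.30 (SE 0.14, edgeR adjusted p = 8.15e-10), and lower than in GABAergic nuclei, with -1.99 (SE 0.14, edgeR adjusted p = 4.83e-09). Its glutamatergic to GABAergic difference of 0.31 (SE 0.13) missed the threshold (edgeR adjusted p = 0.124). Between astrocyte and glutamatergic nuclei both Trk genes passed the test, Ntrk2 higher and Ntrk3 lower in astrocytes.

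Ngfr was near 0. In the 3 classes it gave 3 UMIs in 3480 nuclei, 1 in each class, and in the reference classes 1 UMI in 376 nuclei. At these depths 3 UMIs over both libraries correspond to 0.259 CPM in glutamatergic, 0.315 CPM in GABAergic and 0.528 CPM in astrocyte nuclei. The gene did not pass the filter on low counts and was not tested. The other 5 members passed it among classes and among subgroups.

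Sort1, which sorts proneurotrophins within the cell as well as acting as a receptor, was broadly found. It was at 180 and 279 CPM in oligodendrocyte, 210 and 192 CPM in microglia, 169 and 146 CPM in astrocyte, 156 and 117 CPM in glutamatergic, 94.1 and 80.6 CPM in GABAergic, and 17.7 and 41.1 CPM in oligodendrocyte precursor nuclei. The oligodendrocyte and microglia values overlapped, as did the astrocyte and glutamatergic ones, and the other neighbours in this order did not. Sort1 was higher in glutamatergic than in GABAergic nuclei by 0.71 (SE 0.12, edgeR adjusted p = 0.000322) and higher in astrocyte than in GABAergic nuclei by 0.81 (SE 0.12, edgeR adjusted p = 3.38e-05). Between astrocyte and glutamatergic nuclei the log2 difference was 0.09 (SE 0.12, edgeR adjusted p = 0.526). Oligodendrocyte nuclei and their precursors, which share a lineage, did not overlap.

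The calls were read against those of all genes. Of the 5 members tested, 3 passed between glutamatergic and GABAergic nuclei (2 higher, 1 lower), where 22.5% of 13391 genes did. Between astrocyte and glutamatergic nuclei 4 passed, where 59.0% of genes did, and between astrocyte and GABAergic nuclei 4, where 53.6% did. The median log2 difference of the tested members was 0.71, -2.30 and 0.69 in these comparisons, and that of all genes was within 0.01 of 0.

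**Figure D2:**
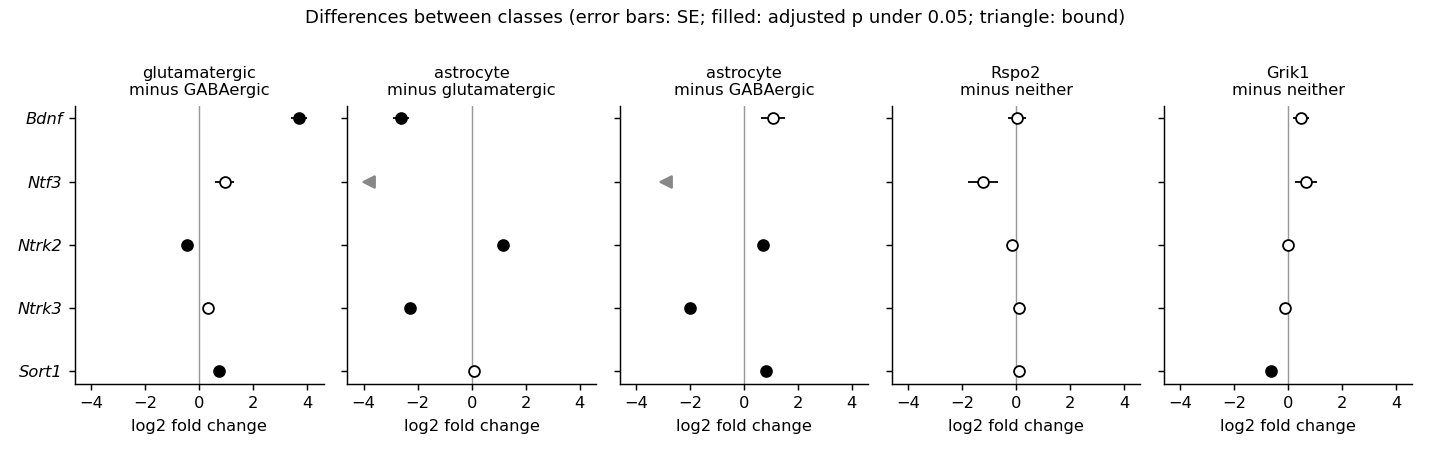
Log2 fold change of the 5 tested genes in the 5 comparisons of classes and subgroups, with bars for the SE, filled points for an edgeR adjusted p under 0.05, and triangles for the bound on Ntf3 against astrocyte nuclei, where it had no UMI. Bdnf was higher in glutamatergic nuclei by 3.70, Ntrk2 and Ntrk3 lay on opposite sides of 0 between astrocyte and glutamatergic nuclei (1.17 and -2.30), and in the subgroups only Sort1 passed (-0.63).

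Within the glutamatergic class, the Rspo2 subgroup held 83 and 22 nuclei, the Grik1 subgroup 93 and 52, and nuclei with neither 295 and 128. Nuclei with both, 13 and 6, were too few to test. The median depth of the Rspo2 subgroup, 23597 and 18243 UMIs, was above that of nuclei with neither, 13486 and 12052. In the edgeR fit 0 members passed between Rspo2 nuclei and those with neither, where 3.41% of 10151 genes did. At an unadjusted p under 0.05 there was 1, Ntf3, and with DESeq2 0. Ntf3 was at 3.36 and 2.26 CPM in Rspo2 nuclei (7 UMIs and 1 UMI) and at 8.08 and 6.43 CPM in those with neither. It was lower in both libraries, with a log2 difference of -1.22 (SE 0.56, edgeR adjusted p = 0.387). For Ntrk2 the difference was -0.14 (SE 0.12), for Ntrk3 0.11 (SE 0.11) and for Sort1 0.10 (SE 0.14).

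Between Grik1 nuclei and those with neither, 1 member passed, where 1.59% of 10151 genes did. Sort1 was at 114 and 79.0 CPM in Grik1 nuclei and at 163 and 130 CPM in those with neither. It was lower within each library, while the higher Grik1 value lay below both others, and the log2 difference was -0.63 (SE 0.15, edgeR adjusted p = 0.0321). The call was lost without the library as a block (edgeR adjusted p = 0.403), with DESeq2 (adjusted p = 0.310), with library 1 added (edgeR adjusted p = 0.223), with a class minimum of 3 UMIs (edgeR adjusted p = 0.309) and with thinned counts (edgeR adjusted p = 0.462). Ntf3 was at 11.4 and 13.4 CPM in Grik1 nuclei, above those with neither in both libraries (log2 difference 0.66, SE 0.42, edgeR adjusted p = 0.727). Ntrk2 (0.0022, SE 0.12) and Ntrk3 (-0.11, SE 0.11) missed the threshold as well.

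Bdnf in these subgroups rested on few nuclei. It was at 46.1 and 17.0 CPM in Grik1, 23.1 and 29.4 CPM in Rspo2, and 22.6 and 26.3 CPM in nuclei with neither, so that the Grik1 values enclosed all others. The difference of Grik1 from neither, 0.47 (SE 0.30, edgeR adjusted p = 0.731), and that of Rspo2, 0.03 (SE 0.33, edgeR adjusted p = 0.9999), missed the threshold. No nucleus held more than 18 Bdnf UMIs in library 2 or more than 9 in library 3, and the 5 nuclei with most held 26.0% and 44.4% of all glutamatergic Bdnf UMIs. In the Grik1 subgroup of library 3 they held all 14. Leaving out the 5 such nuclei of each class and library, an alternative chosen after seeing the data, lowered the glutamatergic level to 19.9 and 13.0 CPM and the Grik1 level to 12.7 and 0 CPM. These nuclei were chosen by Bdnf itself. They held 58.3% and 84.6% of the Bdnf UMIs of Rspo2 nuclei and 74.0% and 100% of those of Grik1 nuclei, against 30.6% and 53.3% in the larger group with neither, so nothing is read from how subgroups compare without them.

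**Figure D3:**
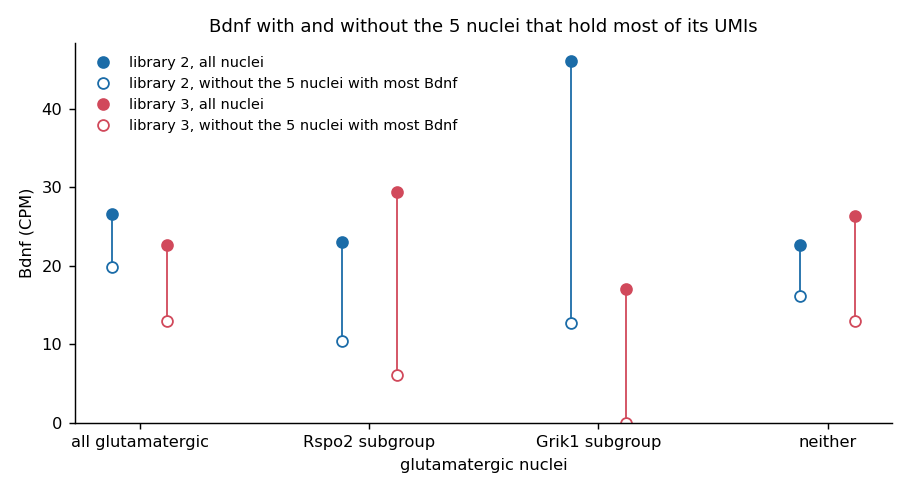
Bdnf level (CPM, linear axis from 0) in all glutamatergic nuclei and in 3 subgroups, with 1 color per library, for all nuclei (filled) and without the 5 nuclei with most Bdnf UMIs of each subgroup and library (open). The Grik1 values fell from 46.1 and 17.0 CPM to 12.7 and 0 CPM.

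Glutamatergic nuclei were also split, as a description with no test, by 9 marker genes used in the study to map the BLA. Nuclei with 2 or more UMIs of such a marker were mostly deeper than the rest, so levels were compared as CPM, which need not remove every effect of depth. Ntf3 was higher with Otof, which encodes otoferlin, at 14.4 and 11.9 CPM against 2.44 and 4.51 CPM without. It was also higher with Grik1, a glutamate receptor gene, at 10.1 and 10.8 CPM against 6.55 and 5.58 CPM, and with Cdh13, which encodes T-cadherin, at 11.02 and 8.72 CPM against 1.28 and 2.62 CPM. It was lower with Etv1, at 3.10 and 4.65 CPM against 12.3 and 9.61 CPM. Over both libraries the lower side held only 6 Ntf3 UMIs for Cdh13, 21 for Otof, 21 for Etv1 and 54 for Grik1. The values did not overlap in these 4 splits, and in 7 of 9 in all, where the share of all genes was not computed. Bdnf was lower with Adamts2, at 9.38 and 0 CPM against 32.0 and 27.6 CPM, and with Lypd1, at 18.8 and 17.8 CPM against 43.5 and 35.7 CPM. The Adamts2 side held only 85 and 26 nuclei and 19 Bdnf UMIs, all in library 2. With Rorb Bdnf was higher, at 31.8 and 27.6 CPM against 25.8 and 21.85 CPM. In both libraries Bdnf was lower in 4 and higher in 2 of 9 splits, and the values did not overlap in 5. The share of all genes was not computed here either. The splits divide the same nuclei and are not separate observations, so nothing is read from the counts for Ntf3 and Bdnf.

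Ntrk2 was lower with Otof, at 576 and 485 CPM against 711 and 772 CPM, with Adamts2, at 522 and 470 CPM against 697 and 708 CPM, and with Sema5a, at 480 and 555 CPM against 719 and 714 CPM. With Rorb, which encodes a nuclear receptor, it was higher, at 787 and 852 CPM against 637 and 633 CPM. Ntrk3 went the other way in the Otof and Rorb splits, at 977 and 969 CPM against 787 and 824 CPM with Otof and at 654 and 742 CPM against 895 and 901 CPM with Rorb. The values of Ntrk2 did not overlap in 7 of 9 splits and those of Ntrk3 in 5 of 9. For Sort1 they did not overlap in 1 of 9, the Grik1 split. The share of all genes was not computed for these splits, so nothing is read from the counts. In glutamatergic nuclei above the median depth Ntrk2 was at 629 and 635 CPM, against 728 and 748 CPM in the others. Whether depth plays a part in the Ntrk2 splits was not tested.

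In GABAergic nuclei 7 markers had at least 20 nuclei on each side in both libraries. Ntrk3 was low in nuclei with Sst, the gene of somatostatin, which marks a class of interneurons. It was at 366 and 294 CPM in the 26 and 42 nuclei with Sst against 739 and 821 CPM in the others. Ntrk3 was also lower with than without Tshz2 (464 and 726 CPM), Calb1 (625 and 576 CPM) and Reln (631 and 651 CPM) in both libraries. With Foxp2, known from the intercalated cells of the amygdala, Ntrk3 was higher, at 847 and 950 CPM against 606 and 592 CPM. Ntrk2 was lower there, at 823 and 754 CPM against 1147 and 1117 CPM. The same directions held with Rarb, by which the study marked the amygdalostriatal area. Ntrk3 was at 806 and 967 CPM with Rarb against 671 and 685 CPM without. Ntrk2 was at 903 and 803 CPM with it against 1052 and 988 CPM. These splits divide the same nuclei. Median depth in the Foxp2 split was 7737 and 7038 UMIs against 7540 and 7492 UMIs. Nuclei with Foxp2 were 159 of 388 and 362 of 677 GABAergic nuclei, so the GABAergic levels of both genes depend on this mix.

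**Figure D4:**
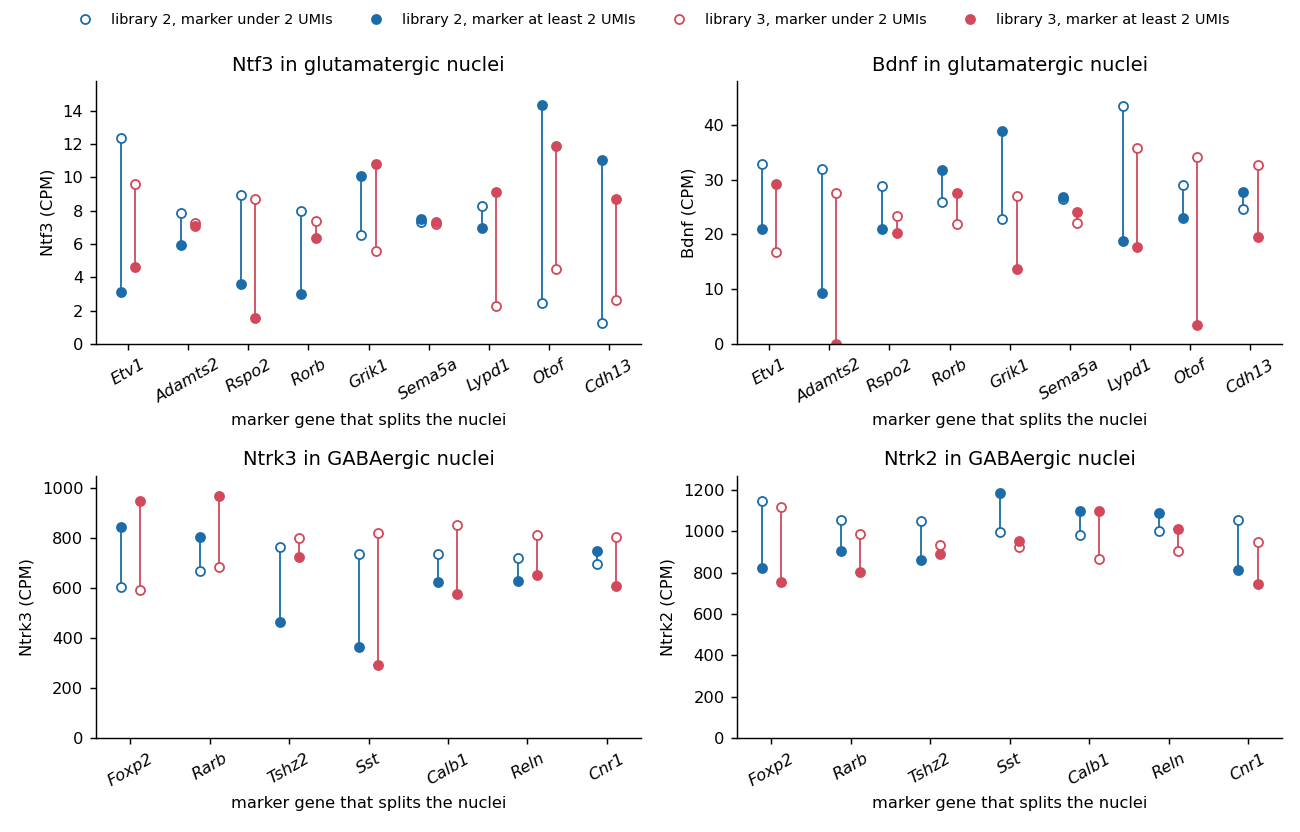
Levels (CPM, linear axes from 0) of Ntf3 and Bdnf in glutamatergic nuclei and of Ntrk3 and Ntrk2 in GABAergic nuclei, with at least 2 UMIs (filled) and under 2 UMIs (open) of each marker on the horizontal axis, 1 color per library. Ntf3 lay higher with Otof (14.4 and 11.9 CPM) than without (2.44 and 4.51 CPM), and Ntrk3 lay lower with Sst (366 and 294 CPM) than without (739 and 821 CPM).

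Of 54 further genes of the pathway in 8 lists, 48 were tested across classes. Ntf5, the gene of NT-4, gave 2 UMIs in the 3 classes and was not among them. Between glutamatergic and GABAergic nuclei 21 of 48 passed, where 22.5% of all genes did, 14 higher and 7 lower in glutamatergic nuclei, with a median log2 difference of 0.06. Of the sortilin family, Sorl1 (1.03) and Sorcs2 (0.59) were higher and Sorcs3 (-0.89) and Sorcs1 (-0.59) lower, with a median of 0.0015. Of 7 proneurotrophin proteases 4 were higher, among them Pcsk2 (1.32), Plat (1.28), which encodes tissue plasminogen activator, and Pcsk1 (0.88), and Pcsk6 was lower (-2.05), with a median of 0.69. Of 17 Trk adaptors and effectors tested, 1 was higher, Shc2 (0.63), and 4 lower, with Gab1 (-1.32), Sh2b2 (-0.93) and Gab2 (-0.74) at the greatest difference, and a median of -0.21. Of 5 p75 partners 2 were higher, Rtn4r (2.70), which encodes the Nogo receptor, and Lingo1 (2.29), with a median of 0.15. Of 7 membrane partners of TrkB and TrkC, Slitrk5 (0.77) and Slitrk1 (0.72) were higher, with a median of 0.30. Of 6 regulators of Bdnf transcription and release, Cpe (1.24), the gene of carboxypeptidase E, Mef2c (0.54) and Crtc1 (0.42) were higher, with a median of 0.35. The 3 immediate early genes tested, among them Npas4 (0.27), had edgeR adjusted p from 0.319 to 0.687.

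**Figure D5:**
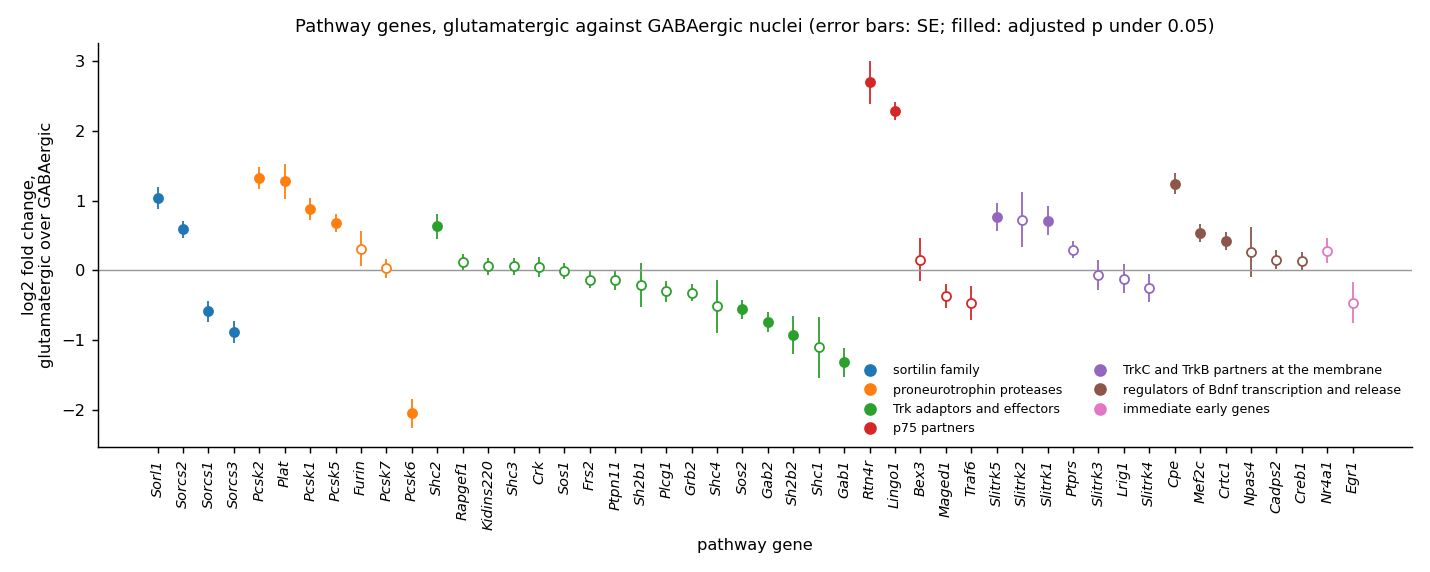
Log2 fold change of glutamatergic over GABAergic nuclei for the pathway genes tested, colored by list and ordered by size within a list, with bars for the SE and filled points for an edgeR adjusted p under 0.05. Pcsk6 lay lowest (-2.05) and Rtn4r highest (2.70).

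Between astrocyte and glutamatergic nuclei 37 of 48 pathway genes passed, where 59.0% of all genes did, 16 higher and 21 lower in astrocytes, with a median of -0.36. Of 17 Trk adaptors and effectors 10 passed, a share like that of all genes, 9 higher, led by Gab1 (4.12) and Shc1 (2.41), and 1 lower, Shc2 (-2.52), with a median of 0.62. Of the membrane partners Lrig1 (4.99) and Slitrk2 (2.45) were higher and 5 lower, among them Slitrk1 (-2.85). Of the proteases Pcsk6 (3.87) was higher and 4 lower, led by Pcsk2 (-4.18). Lingo1 (-4.28), Rtn4r (-3.75), Sorcs1 (-3.04) and Sorcs3 (-2.70) were lower, and so were the 3 immediate early genes tested, Npas4 (-3.00), Nr4a1 (-2.73) and Egr1 (-2.23). Cpe was higher in astrocytes (2.40). Between astrocyte and GABAergic nuclei 38 passed, where 53.6% of all genes did, 15 higher and 23 lower, with a median of -0.49, and Lrig1 (4.87), Cpe (3.64) and Slitrk2 (3.18) were again higher. In the subgroups 45 genes were tested and 2 passed in each comparison, where 3.41% of all genes did with Rspo2 and 1.59% with Grik1, so few that nothing is read from the counts. These were Pcsk5 (0.72) and Sorcs2 (0.52), higher with Rspo2, and Mef2c (-0.60) and Pcsk2 (-0.51), lower with Grik1.

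Since Bdnf transcription is known to follow neuronal activity, glutamatergic nuclei were split after seeing the data by the summed UMIs of 7 immediate early genes, with no test. Nuclei with 2 or more, 86 and 25, had a median depth of 22914 and 21714 UMIs, against 14451 and 12552 in the other 398 and 183. In library 2 Bdnf was at 55.3 CPM (95% Poisson interval 45.5 to 66.4) in the former and 17.3 CPM (14.2 to 20.9) in the latter. In library 3 it was at 24.7 CPM (14.1 to 40.1) and 22.2 CPM (16.8 to 28.8), with overlapping intervals. The share of nuclei with a Bdnf UMI was 36.0% against 13.1% in library 2 and 36.0% against 10.9% in library 3, beside this gap in depth. Ntrk2 was at 997 and 719 CPM in the former and 544 and 652 CPM in the latter, Ntrk3 at 802 and 969 CPM against 887 and 854 CPM.

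Levels of genes were compared by Pearson's r of log2(CPM + 1) over 16 sums of class or subgroup and library. The sums share libraries but not nuclei. The genes whose level was most like that of a member are named. Among 6267 genes these were Scube1 (0.90), Adcy9 and Cdkl4 for Bdnf, Tmem63c (0.86), Atp6v1a and Syt7 for Ntf3, Gpm6a (0.95), Fut9 and Dgkb for Ntrk2, Csmd1 (0.99), Kcnd3 and Me3 for Ntrk3, and Axin1 (0.95), Sypl and Rnf115 for Sort1.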

How the data were processed

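Nuclei of the BLA were sequenced as 10x 3' libraries. The authors aligned reads to the 10x mouse reference (mm10, intronic reads included) with Cell Ranger 7.0.1 and deposited unnormalized UMI counts, a matrix of genes by barcodes for each of 3 libraries of 1 group. Library 1 (819 barcodes, 55 in the classes) entered only as an alternative, with sums of at least 10 nuclei. Of its classes only the glutamatergic one reached that number. Barcodes were kept with more than 200 genes, under 20% mitochondrial and under 0.2% hemoglobin UMIs. The ribosomal criterion of the study was not applied. No doublet caller was run. Mixed transmitter genes exclude a nucleus from the glutamatergic and GABAergic classes, but not from the astrocyte class. An alternative left out the deepest 5%.

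Counts were summed per class and library (442159 to 8398155 UMIs) and tested with edgeR 4.0.16 (TMM, filterByExpr, quasi-likelihood test, library as block, Benjamini-Hochberg over all genes, 0.05). The classes of a library come from 1 suspension, which is why the library was used as a block. The fit was tested on simulated counts with a set spread and no library effect, so real data may give fewer calls. Of 100 genes changed 2-fold, 65% were recovered between glutamatergic and GABAergic nuclei and 57% between Rspo2 nuclei and those with neither. Of 100 changed 4-fold, 100% were recovered in both, and there were 5 and 9 false calls. DESeq2 1.42.0, RLE scaling, no filter, a minimum of 3 UMIs, thinned counts and the astrocyte threshold were alternatives. Intervals are exact (95%), while the limits for a count of 0 are those of 3 UMIs or 3 nuclei. The members, lists and tests were chosen with earlier results of these data known. Up to 4 genes of a list past the threshold were named, those with the largest change, and 3 genes most like each member. Some genes of the lists are not reported here. Positions come from GENCODE vM21, promoters from RefSeq.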

Additional observations from a re-analysis of the deposited data

Results flagged for a closer look

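Library 1 lies outside the comparisons, and only 42 glutamatergic, 7 GABAergic and 6 astrocyte nuclei of its 819 barcodes met the class rule. It was looked at because members gave more than 3 UMIs there. Bdnf was at 26.7 CPM in its glutamatergic nuclei. Ntrk2 was at 444 CPM in glutamatergic, 486 CPM in GABAergic and 1084 CPM in astrocyte nuclei. Ntrk3 was at 592, 846 and 339 CPM and Sort1 at 130, 162 and 126 CPM in these classes. No test was run on these values, and the astrocyte nuclei had a median depth of 17029 UMIs.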

How the results depend on the processing

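Without the replicate block the Ntrk2 difference of glutamatergic to GABAergic nuclei (-0.47) and that of Sort1 in Grik1 nuclei (-0.63) missed the threshold, and calls fell to 68 with Rspo2 and 10 with Grik1. Sort1 with Grik1 was also lost with DESeq2 (-0.64), library 1 added (-0.51), a minimum of 3 UMIs (-0.55), thinned counts (-0.74) and without the 5 nuclei with most Bdnf (-0.59). Bdnf of astrocyte to GABAergic nuclei passed with RLE scaling (1.09, edgeR adjusted p = 0.0490). Of 111 tested alternatives for called members, not counting Bdnf without the 5 nuclei, 104 kept direction and call, and 7 lost the call. In the class fit, library 1 added only a glutamatergic sum, which its own block takes up. That alternative could hardly change a class call. Signs turned only in subgroup differences that missed the threshold. For Bdnf they turned with Rspo2 without the filter (-0.0034) and with Grik1 at 3 UMIs (-0.28). Without the 5 nuclei the Bdnf differences were -0.76 with Rspo2 and -0.95 with Grik1, but these nuclei were chosen by Bdnf and held more of its UMIs in the smaller subgroups, so this turn follows from the choice and says nothing on stability. Ntrk3 with Rspo2 turned with thinned counts (-0.16). Ntrk2 with Grik1 turned without the filter (-0.038), with library 1 (-0.14), at 3 UMIs (-0.14) and without the 5 nuclei (-0.091). The other causes were not tested.

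Counts of genes past the threshold moved by over 1.5 times as follows, though the number of genes tested differed in some alternatives. Thinned counts left 8418 genes tested among classes and 2855 among subgroups, against 13391 and 10151 in the main fit. Subgroup tests held 7967 genes at 3 UMIs and 21399 without the filter. A changed count is therefore not in itself a changed share of the genes tested. Glutamatergic to GABAergic gave 3008 calls, 1581 with DESeq2 and 1417 with thinned counts. Thinned counts gave 4675 calls against 7895 for astrocyte to glutamatergic and 4588 against 7173 for astrocyte to GABAergic. Rspo2 gave 346, and 135 with DESeq2, 195 at 3 UMIs, 60 with thinned counts and 209 without the 5 nuclei. Grik1 gave 161, and 49 with DESeq2, 318 without the filter, 76 with library 1, 74 at 3 UMIs, 44 with thinned counts and 86 without the 5 nuclei.

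With 1 library left out no test is possible, and the log2 ratio of CPM in the other is given as a range. For glutamatergic to GABAergic nuclei it was 3.27 to 4.25 for Bdnf, 0.72 to 1.04 for Ntf3, -0.63 to -0.47 for Ntrk2, 0.17 to 0.30 for Ntrk3 and 0.54 to 0.72 for Sort1. For astrocyte to glutamatergic it was -2.82 to -2.29 for Bdnf, 1.16 to 1.40 for Ntrk2, -2.19 to -2.17 for Ntrk3 and 0.12 to 0.32 for Sort1. For astrocyte to GABAergic it was 0.99 to 1.42 for Bdnf, 0.69 to 0.77 for Ntrk2, -2.02 to -1.88 for Ntrk3 and 0.84 to 0.85 for Sort1. For Rspo2 it was 0.028 to 0.16 for Bdnf, -1.51 to -1.26 for Ntf3, -0.23 to -0.12 for Ntrk2, 0.068 to 0.10 for Ntrk3 and 0.064 to 0.080 for Sort1. For Grik1 it was -0.63 to 1.03 for Bdnf, 0.49 to 1.06 for Ntf3, -0.0085 to 0.080 for Ntrk2, -0.16 to 0.013 for Ntrk3 and -0.72 to -0.52 for Sort1. With Grik1, Bdnf, Ntrk2 and Ntrk3 thus changed sign between libraries 2 and 3.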
